A study of Mus musculus with 36 samples.

Results

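Interferon response genes, the genes that cells switch on after type I interferon, were followed in mouse kidneys carrying mutations of 2 genes of polycystic kidney disease. The set holds 41 gene symbols of interferon-stimulated genes other than the IRG and GBP GTPases. The members were listed by symbol, with earlier results of these data known. The deposited table, with 18049 genes in all, lists 40 of them, and Mx1 was not analysed here. All 40 passed the filter on low counts at every age.

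RNA of the whole kidney was sequenced from C57BL/6 mice of 3 ages, on the day of birth (P0) and on days 3 (P3) and 12 (P12), and of 4 genotypes: WT, Pkd1-RC/RC, Pkhd1-/- and Digenic, which carries Pkhd1-/- and Pkd1RC/RC together. Pkd1 encodes polycystin-1, and RC is a hypomorphic allele of it. Fibrocystin, the product of Pkhd1, is lost in the recessive form of the disease. Each of the 12 groups held 3 libraries, 36 in all. Each library carries a number of its own in the labels and is taken here as 1 mouse, which the labels do not state, so p-values measure the spread between these samples. The labels name no treatment, no promoter and no cell type to which a mutation is restricted.

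Type I interferons bind a receptor of 2 chains, IFNAR1 and IFNAR2, whose kinases JAK1 and TYK2 phosphorylate STAT proteins, STAT2 among them. With IRF9 these form the complex ISGF3, which binds interferon-stimulated response elements (ISRE) near the start of its target genes. Interferon gamma acts at another element, the gamma-activated site (GAS), and many genes answer to both. The products degrade or mask viral RNA, block virus release, sense nucleic acids, and restrain or amplify the response itself.

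Promoter sequences show which of these elements stand near the start sites. They came from RefSeq (GRCm38.p6) and run from 250 bases before to 50 bases after a start site. Of the 40 genes, 31 had an entry. The ISRE core was searched as GAAANNGAAA and the GAS core as TTCNNNGAA, each on both strands, and overlapping matches were kept. The ISRE core stood in 13 of the 31 genes (41.9%) and in 3.99% of all 27025 genes with an entry, or 3.44% of all windows of that length. The GAS core stood in 7 of the 31 (22.6%) and in 9.55% of all genes, or 8.30% of all windows. A match is a run of letters and not a measured binding site. The 6 promoters below belong to genes that the results turn on: 5 hold at least 1 ISRE core and Irf1 holds a GAS core alone. Capitals mark the matches, and in Bst2 the GAS match overlaps the first ISRE match.
Isg15, chr4:156200769-156201068, minus strand: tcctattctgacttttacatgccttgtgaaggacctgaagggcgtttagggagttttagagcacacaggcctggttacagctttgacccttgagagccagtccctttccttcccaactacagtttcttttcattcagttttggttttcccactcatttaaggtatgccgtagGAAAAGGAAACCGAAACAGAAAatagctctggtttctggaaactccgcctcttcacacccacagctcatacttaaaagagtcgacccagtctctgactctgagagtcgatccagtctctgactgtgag
Ifit1, chr19:34640639-34640938, plus strand: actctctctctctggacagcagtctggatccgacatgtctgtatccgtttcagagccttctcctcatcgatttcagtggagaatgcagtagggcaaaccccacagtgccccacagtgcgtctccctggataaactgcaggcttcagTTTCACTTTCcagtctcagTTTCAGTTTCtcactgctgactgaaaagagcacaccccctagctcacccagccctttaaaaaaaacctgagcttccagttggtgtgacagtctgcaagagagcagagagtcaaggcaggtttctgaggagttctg
Ifit3, chr19:34583279-34583578, plus strand: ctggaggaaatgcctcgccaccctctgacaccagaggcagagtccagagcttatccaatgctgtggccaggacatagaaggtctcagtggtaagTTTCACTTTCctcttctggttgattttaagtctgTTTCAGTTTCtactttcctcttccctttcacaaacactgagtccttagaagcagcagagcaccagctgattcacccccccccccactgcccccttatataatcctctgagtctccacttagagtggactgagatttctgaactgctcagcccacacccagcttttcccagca
Oas1a, chr5:120907476-120907775, minus strand: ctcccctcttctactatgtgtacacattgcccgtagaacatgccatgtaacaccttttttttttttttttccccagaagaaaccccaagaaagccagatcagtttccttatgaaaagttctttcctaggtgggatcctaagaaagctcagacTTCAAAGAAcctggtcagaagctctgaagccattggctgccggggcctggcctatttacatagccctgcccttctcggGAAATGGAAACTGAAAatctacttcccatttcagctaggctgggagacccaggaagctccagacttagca
Bst2, chr8:71537423-71537722, minus strand: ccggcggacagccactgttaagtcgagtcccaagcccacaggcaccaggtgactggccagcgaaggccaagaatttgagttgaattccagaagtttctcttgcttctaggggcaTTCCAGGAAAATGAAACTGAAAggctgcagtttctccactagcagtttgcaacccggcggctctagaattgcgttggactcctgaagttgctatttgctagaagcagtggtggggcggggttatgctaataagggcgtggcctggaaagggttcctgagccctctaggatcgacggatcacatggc
Irf1, chr11:53769764-53770063, plus strand: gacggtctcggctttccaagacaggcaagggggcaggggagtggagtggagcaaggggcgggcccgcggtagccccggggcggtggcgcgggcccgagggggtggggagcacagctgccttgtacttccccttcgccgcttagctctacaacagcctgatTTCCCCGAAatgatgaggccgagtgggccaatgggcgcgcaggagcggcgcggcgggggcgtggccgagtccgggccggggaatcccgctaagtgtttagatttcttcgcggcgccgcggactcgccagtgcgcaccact

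Positions are those of a match's first base, counted from the start site with negative numbers before it. Isg15 held 3 overlapping ISRE cores, at -78, -72 and -66. Ifit1 held 2, read on the opposite strand, at -104 and -85, and Ifit3 held 2 on that strand at -156 and -122. In Oas1a the 2 ISRE cores lay at -20 and -14, beside a GAS core at -98. Irf1, an interferon gamma target, had its GAS core at -90.

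Total counts per library ran from 51411240 to 80789299. Pkhd1, the deleted gene, lay between 5.68 and 32.3 CPM (counts scaled to the library total) in the 18 libraries labelled Pkhd1-/- or Digenic and between 60.8 and 245.7 CPM in the 18 others. The column headers differ from the labels in the age of Digenic replicate 1 of P12 and in the genotype of Pkd1-RC/RC replicate 2 of P12. Over 410 genes that changed at least 4-fold between WT P3 and WT P12, the former library lay at 0.77 on a scale where the WT means are 0 and 1, beside 0.71 and 0.76 in the other P12 Digenic libraries and 0.05 to 0.14 in those of P3. In 3 libraries Xist and Y-linked counts gave another sex than the header. At P3 all 3 Digenic mice were female by those counts, against 1 of 3 WT, 1 of 3 Pkd1-RC/RC and 0 of 3 Pkhd1-/-. Markers of kidney summed to 3037 to 3985 CPM in WT at P0 and 7673 to 8605 at P12. In whole-tissue RNA, fewer cells of a type and less RNA per cell cannot be told apart. Levels below are CPM after TMM scaling within an age. Changes are log2 fold changes from edgeR's quasi-likelihood fit, and calls were made at an adjusted p (Benjamini-Hochberg, over every gene tested) below 0.05.

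**Figure D1:**
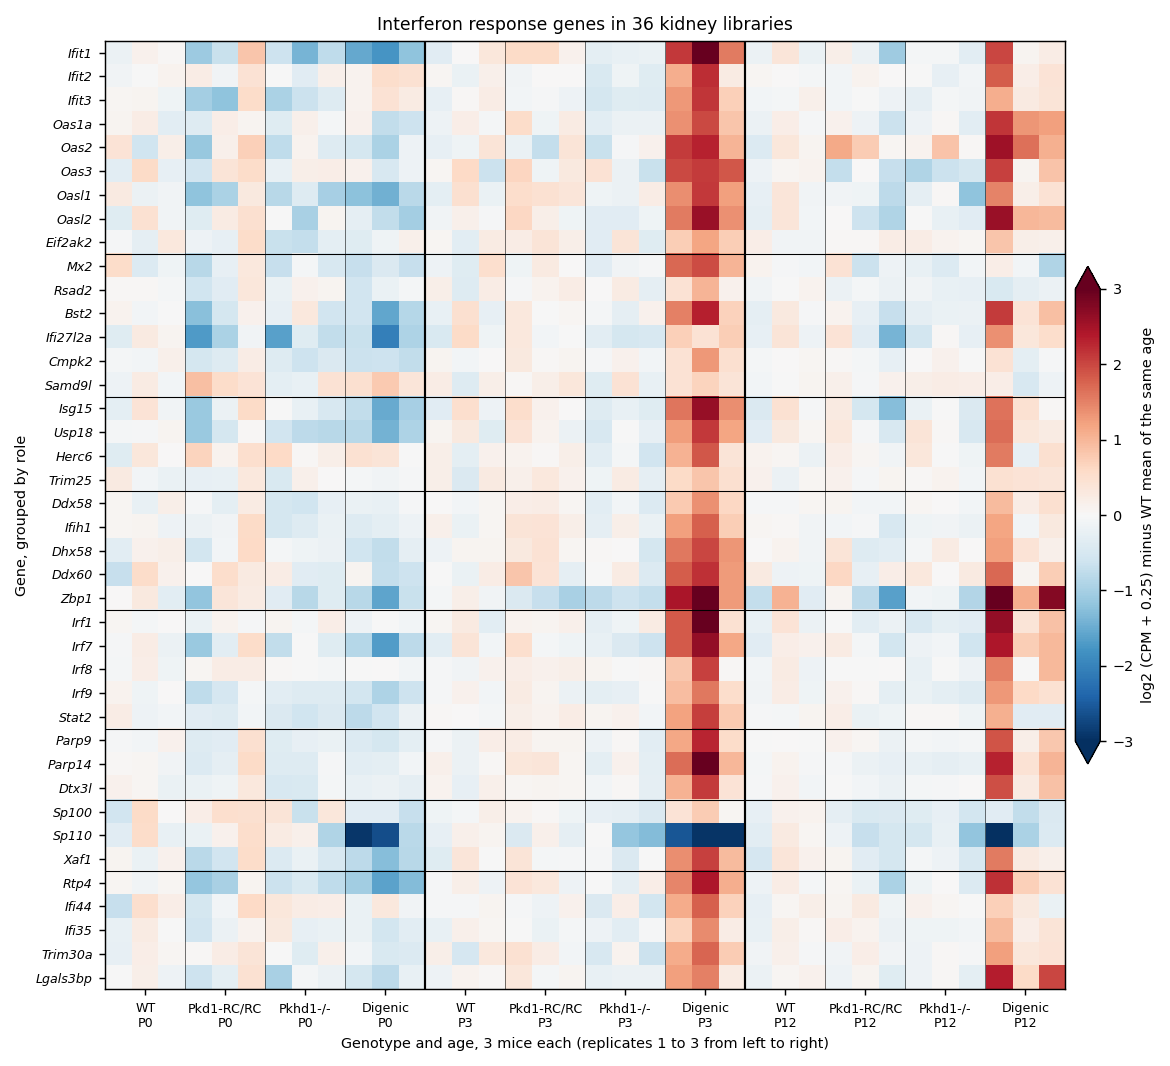
Level of the 40 interferon response genes (rows, grouped by role) in the 36 libraries (columns), as log2 of CPM plus 0.25 minus the WT mean of the same age. The 3 Digenic columns of P3 and the first Digenic column of P12 are the reddest, with 36 to 39 of 40 genes above every WT library of the age, and Sp110 stands against them. For single libraries the share over all genes is not given here.

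In WT kidneys the set was expressed from birth. Per gene length, Bst2 was the highest gene at P0 with 111.4 RPKM (scaled CPM per kilobase of gene length), followed by Ifi27l2a at 67.99 and Lgals3bp at 40.01. Bst2 tethers virus particles to the cell surface, and Lgals3bp is a secreted glycoprotein. Oas3 was the lowest at 0.17 RPKM. The median was 3.25 RPKM at P0, 2.64 at P3 and 2.99 at P12, and 32, 31 and 31 of 40 genes lay above 1 RPKM.

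Between P0 and P3, 17 of 40 genes fell in WT and 1 rose, beside 24.7% of all genes called (12.8% up, 11.9% down). These values are on a scale common to all 36 libraries. The median change was -0.61 on the log2 scale, against 0.01 for all genes, and the 3 P3 libraries lay below the 3 P0 libraries for 25 genes, as they did for 15% of all genes. Ifit1, which binds foreign RNA at its cap, had 6.96, 8.69 and 8.09 CPM at P0 and 2.08, 2.64 and 3.44 at P3, a change of -1.54 ± 0.48 (standard error, adjusted p = 0.0195). Oasl1, a 2-5A synthetase-like protein, had 8.47, 6.11 and 6.5 CPM and then 1.33, 2.39 and 1.45, a change of -2.03 ± 0.40 (adjusted p = 0.000832). Ifi27l2a, a small mitochondrial protein, changed by -2.11 ± 0.43 (adjusted p = 0.00109). The groups did not overlap for any of these 3 genes.

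The fall took in 4 of 9 RNA effectors, 3 of 4 genes of the ISG15 system and 2 of 5 transcription factors. It also took in 4 of 6 genes of a mixed group of effectors (Bst2, Mx2, Cmpk2, Rsad2, Samd9l and Ifi27l2a). Irf7, the factor that amplifies interferon production, had 23.5, 28.0 and 21.3 CPM at P0 and 6.62, 10.6 and 7.89 at P3 (change -1.53 ± 0.40, adjusted p = 0.00725). Isg15, a ubiquitin-like protein that is conjugated to others, had 12.5, 20.6 and 14.5 and then 4.94, 8.86 and 5.65 (-1.29 ± 0.42, adjusted p = 0.0239). Usp18, which removes ISG15 and blocks the receptor, changed by -1.36 ± 0.34 (adjusted p = 0.00551), and Rsad2, the antiviral enzyme viperin, by -0.91 ± 0.20 (adjusted p = 0.00218). All of these lay lower in 3 of 3 P3 libraries. Samd9l, a growth-restraining antiviral protein, was the gene that rose, from 32.9, 43.8 and 34.5 CPM to 83.4, 53.5 and 80.4 (0.97 ± 0.20, adjusted p = 0.00131). Among neutrophil markers 5 of 6 fell over the same days, with a median of -1.76, and their part in the fall was not tested. Without WT P3 replicate 1 the count was 10 of 40.

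From P3 to P12, 7 of 40 genes rose in WT and 1 fell, beside 35.5% of all genes (18.6% up, 17% down), with a median of 0.37. Samd9l rose further by 0.84 ± 0.20 (adjusted p = 0.00152), and Ifi27l2a fell further by 1.96 on the log2 scale (standard error 0.44, adjusted p = 0.000911). The other 6 that rose were Sp100, Ifih1, Ifit3, Rsad2, Ddx58 and Trim30a, with changes from 0.44 to 0.92. The count lay at 3 to 5 of 40 without WT P3 replicate 1 or 2 or without any 1 WT P12 library.

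At P3 the Digenic kidneys held more RNA of most of the set. Against WT of the same age 30 of 40 genes rose and 1 fell, beside 2.7% of all genes called (2.09% up, 0.61% down), and the median change was 1.5 on the log2 scale, or 2.83-fold, against -0.01 for all genes. Of the 40 genes, 39 had a positive change, and for 35 all 3 Digenic libraries lay above all 3 WT libraries, as for 9.49% of all genes.

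Ifit1 had 2.19, 2.82 and 3.6 CPM in WT and 13.1, 29.8 and 8.82 in Digenic kidneys, a change of 2.58 ± 0.37 (adjusted p = 0.00466). The lowest Digenic library lay more than 2-fold above the highest WT library. Across the other RNA effectors, Oasl2 had 13.6, 16.4 and 14.2 CPM in WT and 43.8, 90.4 and 38.3 in Digenic (1.96 ± 0.29, adjusted p = 0.00548), again without overlap. Oas1a, Oas2 and Oas3, synthetases of the 2-5A that activates RNase L, rose by 1.55, 2.18 and 2.42. Oasl1, Ifit3 and Eif2ak2, the last encoding the kinase PKR that stops translation, rose by 1.72, 1.52 and 0.89. Ifit2 alone of the 9 did not pass, at 26.8, 22.2 and 28.3 CPM in WT against 55.2, 119.2 and 30.3 (1.41 ± 0.37, adjusted p = 0.0794). Ifit3 and Oas1a have close paralogues in the mouse genome, and the sources used here do not say how reads shared between copies were counted, so their values are uncertain.

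Isg15 had 5.2, 9.47 and 5.90 CPM in WT and 20.7, 41.5 and 17.7 in Digenic, a change of 1.96 ± 0.31 (adjusted p = 0.00705). Usp18 had 3.21, 3.75 and 2.30 and then 7.54, 14.0 and 7.25 (1.64 ± 0.28, adjusted p = 0.00928). Herc6, the mouse ligase that attaches ISG15, rose by 1.25 ± 0.29. Trim25, a ligase upstream of the RNA sensor RIG-I, stood at 0.60 ± 0.17 (adjusted p = 0.0925), so 3 of these 4 genes rose.

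All 5 nucleic acid sensors and regulators rose. Dhx58, which encodes LGP2, had 1.40, 1.67 and 1.66 CPM in WT and 5.25, 7.01 and 4.28 in Digenic (1.80 ± 0.23, adjusted p = 0.00285). Ddx58 and Ifih1, encoding RIG-I and MDA5, rose by 0.97 ± 0.16 and 1.33 ± 0.22. Zbp1, a sensor of Z-form nucleic acid that can trigger necroptosis, showed the widest spread, with 0.73, 0.89 and 0.69 CPM in WT and 5.36, 19.0 and 2.21 in Digenic (3.52 ± 0.62, adjusted p = 0.0134). It was still above WT in 3 of 3 libraries.

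Among the transcription factors Irf7, Irf9 and Stat2 rose. Irf7 had 6.96, 11.3 and 8.24 CPM in WT and 31.5, 55.3 and 19.7 in Digenic (2.0 ± 0.33, adjusted p = 0.00849). Stat2, a subunit of ISGF3, had 13.0, 12.7 and 12.1 and then 29.5, 54.1 and 21.8 (1.48 ± 0.24, adjusted p = 0.00831). Neither gene's groups overlapped. Irf1 and Irf8, factors that interferon gamma induces, did not pass. Irf1 had 15.6, 18.1 and 12.1 CPM in WT and 55.0, 199.8 and 21.0 in Digenic (2.59 ± 0.67, adjusted p = 0.0883), so its estimate was as large as that of Ifit1 with a wider error. Irf8 had 28.9, 68.8 and 16.9 CPM against 16.1 to 17.9 in WT, and Digenic replicate 3 lay within the WT range.

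Parp9, Parp14 and Dtx3l, ADP-ribosylation genes, all rose, by 1.53, 2.27 and 1.37. Rtp4, Ifi44, Trim30a, Lgals3bp and Xaf1 rose by 1.09 to 1.80. The mixed group of effectors was split: Bst2, Mx2 and Cmpk2 rose by 1.63, 2.11 and 0.80, while Rsad2, Samd9l and Ifi27l2a had changes of 0.48 to 0.58 with adjusted p from 0.217 to 0.263. Rsad2 had 48.2, 32.9 and 49.7 CPM in WT and 58.1, 86.9 and 46.7 in Digenic, and the groups overlapped. Mx2 is a polymorphic pseudogene in the annotation, with under 1 CPM in WT. Ifi35 and Sp100 stood at 0.85 and 0.44 without passing (adjusted p = 0.0738 and 0.198), and Sp110 fell.

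**Figure D2:**
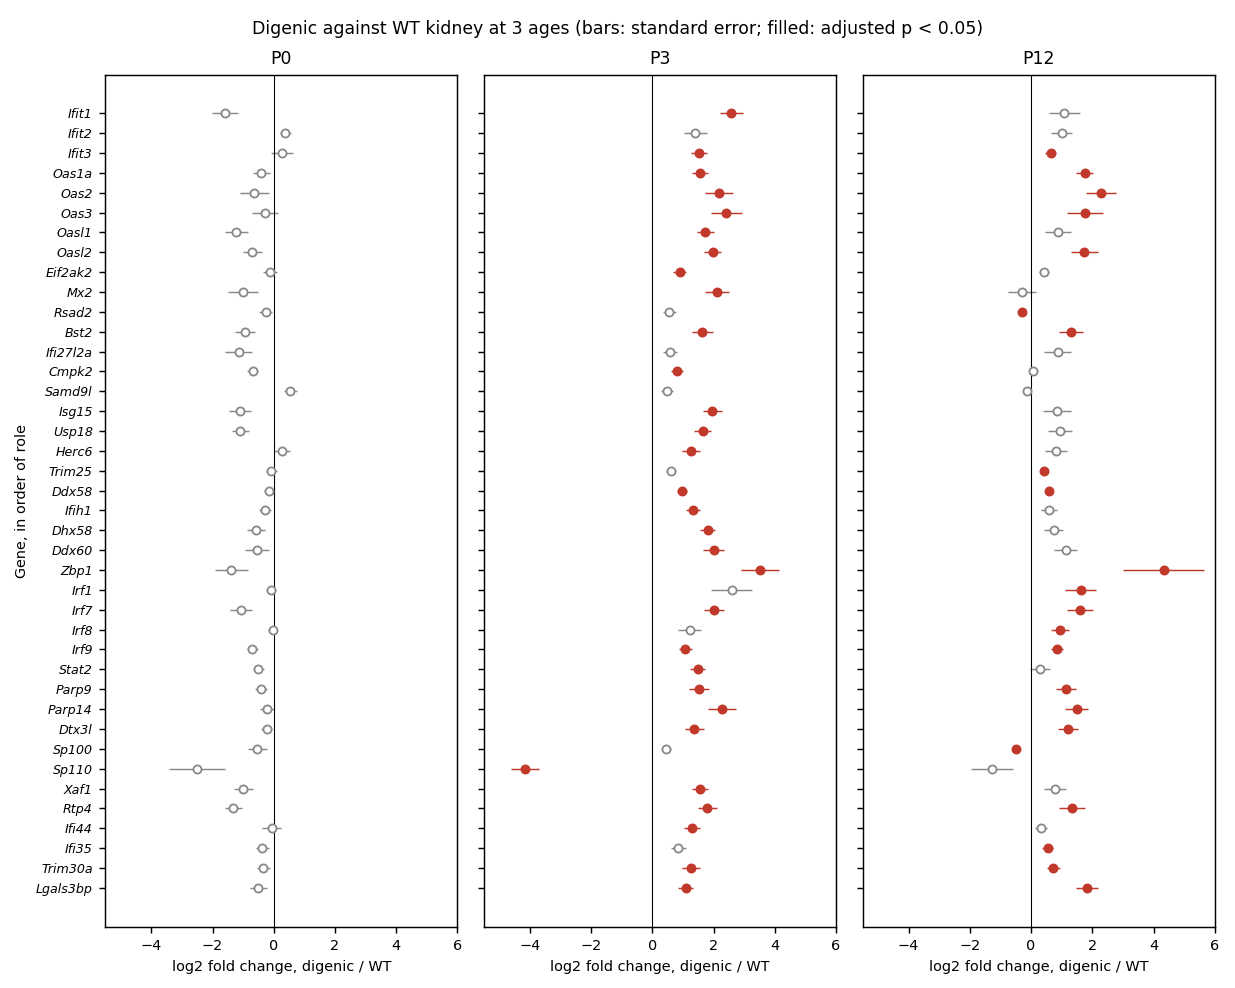
Log2 fold change of Digenic against WT for each of the 40 genes at P0, P3 and P12 (bars are the standard error, filled points passed an adjusted p of 0.05). At P0 36 of 40 estimates lie below 0 and none is filled, at P3 39 lie above 0, and at P12 35 do with less even sizes.

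The Digenic libraries of P3 kept 1 order across genes. Replicate 2 was the highest of the 3 for 38 of 40 genes and replicate 3 the lowest for 37. The mean log2 difference from WT over the set was 1.17, 1.88 and 0.69 in replicates 1 to 3, and 39, 38 and 36 genes lay above every WT library. For single libraries the share over all genes is not given here. The 3 WT libraries lay between -0.06 and 0.04. With Digenic replicate 2 left out 20 of 40 genes were called and the median was 1.02. The count was 12 without WT replicate 1 and 20 without WT replicate 2 or 3, with medians of 1.42 to 1.47. With sex as a covariate 2 of 40 were called, Dhx58 up and Sp110 down, while the median change was 1.39. The female WT library stood at 0.04 and the female Pkd1-RC/RC library at 0.23 on the scale of set means, 1 library each. With all 3 Digenic libraries female, sex and genotype cannot be fully told apart at this age.

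No gene of the set was called in a single mutant at P3, where few genes of any kind were called. In Pkd1-RC/RC kidneys edgeR and DESeq2 both called 0 of 40 genes against WT, where edgeR called 0.0443% of all genes. The median change was 0.12, with 32 of 40 estimates above 0. An unadjusted p under 0.05 was reached by 0 of 40, against 4.46% of all genes. In Pkhd1-/- kidneys both tools called 0, where edgeR called 0.0166% of all genes. The median was -0.20, with 37 of 40 estimates below 0. Unadjusted, 1 of 40 passed 0.05, against 2.19% of all genes. Ifit1 stood at 4.35, 4.32 and 3.13 CPM in Pkd1-RC/RC and at 2.24, 2.40 and 2.44 in Pkhd1-/-. Isg15 stood at 9.60, 7.22 and 6.70 and at 4.98, 5.63 and 5.13.

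The difference was also tested directly. Digenic against Pkhd1-/- at P3 gave 34 genes up and 1 down, beside 3.49% of all genes, with a median of 1.70. Against Pkd1-RC/RC 14 rose and 1 fell, beside 0.46%, with a median of 1.31, and all 3 Digenic libraries lay above the Pkd1-RC/RC libraries for 35 of 40 genes, as for 9.35% of all genes. Dhx58 rose by 1.51 ± 0.23 (adjusted p = 0.0228), Ifit1 by 2.14 ± 0.36 and Irf7 by 1.90 ± 0.33 (both with adjusted p = 0.0338). Without any 1 Pkd1-RC/RC library only Sp110 was called in that comparison, without Digenic replicates 1, 2 or 3 the counts were 3, 6 and 32, and with sex as a covariate 1 was. Against Pkhd1-/- the count was 18 and 21 without Pkhd1-/- replicates 1 and 3, and 0 with sex as a covariate. These comparisons share the Digenic libraries with the one against WT.

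**Figure D3:**
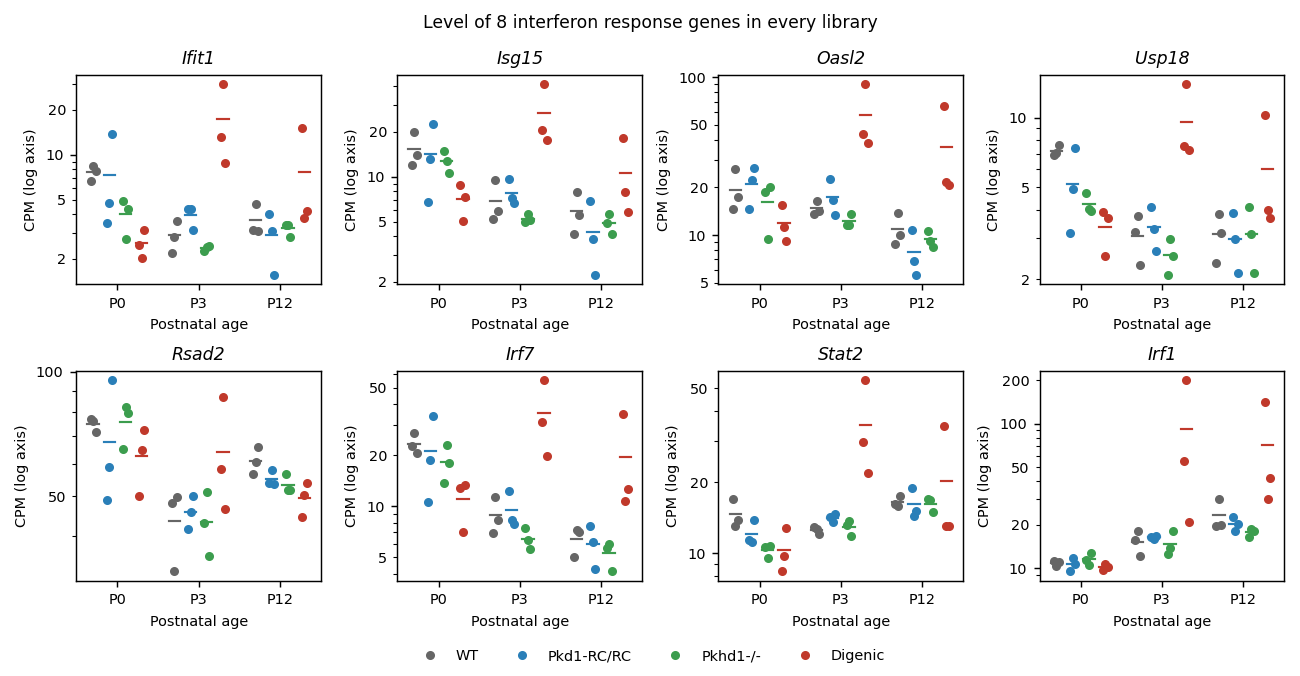
Level of 8 genes in every library at the 3 ages (CPM on a log axis, scaled within each age; points are libraries and bars group means). For Ifit1, Isg15, Oasl2, Usp18, Irf7, Stat2 and Irf1 the 3 Digenic libraries of P3 lie above the other libraries of that age, and at P12 1 Digenic library stands above the other 2.

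At P12 the change was uneven between genes and between mice. Against WT 20 of 40 genes rose and 2 fell, beside 23% of all genes called (12% up, 11% down), with a median of 0.86 against -0.01 for all genes. Thus a much larger part of the transcriptome changed at this age than at P3. Of the 30 genes up at P3, 16 were also up at P12, which is 16 of the 20 up at P12.

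The 4 genes up at P12 and not at P3 were Irf1, Irf8, Ifi35 and Trim25. The difference between ages was called for none of these 4. Irf1 had 19.7, 30.3 and 20.05 CPM in WT and 142.6, 30.1 and 42.1 in Digenic (1.62 ± 0.51, adjusted p = 0.0475), with replicate 2 inside the WT range. Irf8 had 60.6, 20.6 and 41.1 CPM against 18.7 to 24.9 in WT (0.95 ± 0.29, adjusted p = 0.0359). Zbp1 had 0.22, 1.36 and 0.36 CPM in WT and 32.0, 1.41 and 4.98 in Digenic (4.33 ± 1.32, adjusted p = 0.0439). In all 3 genes replicate 2 was within or just above the WT range.

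Other genes stood above WT in every Digenic mouse. Oas1a had 1.54, 2.06 and 1.69 CPM in WT and 8.54, 4.76 and 4.48 in Digenic (1.75 ± 0.28, adjusted p = 0.000974). Oasl2 had 8.82, 13.8 and 10.03 and then 65.9, 21.6 and 20.8 (1.73 ± 0.44, adjusted p = 0.0189). Irf7 had 4.99, 7.27 and 7.0 and then 34.9, 10.8 and 12.6 (1.60 ± 0.41, adjusted p = 0.0180). For these 3 the groups did not overlap. Lgals3bp had 89.7, 105.3 and 110.6 CPM in WT and 518.4, 151.1 and 407.3 in Digenic (1.82 ± 0.36, adjusted p = 0.00601). Trim25 had a small rise with little spread, from 64.8 to 80.9 CPM in WT to 94.96 to 101.3 in Digenic (0.41 ± 0.09, adjusted p = 0.00494). Oas2 and Irf9 rose by 2.29 ± 0.49 and 0.83 ± 0.20, and all 3 of Parp9, Parp14 and Dtx3l rose, by 1.13 to 1.49.

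Several genes that had risen at P3 were not called at P12. Ifit1 had 3.13, 4.66 and 3.06 CPM in WT and 15.02, 3.77 and 4.19 in Digenic (1.08 ± 0.50, adjusted p = 0.143), so 2 of 3 Digenic mice lay in the WT range. Isg15 had 4.13, 7.94 and 5.57 and then 18.2, 7.85 and 5.86 (0.86 ± 0.46, adjusted p = 0.213). Usp18 had 2.35, 3.83 and 3.18 and then 10.3, 3.97 and 3.67 (0.94 ± 0.40, adjusted p = 0.107). Stat2 had 16.2, 15.8 and 17.4 CPM in WT and 34.5, 13.0 and 13.0 in Digenic (0.29 ± 0.31, adjusted p = 0.547), with 2 mice below every WT library. Mx2 and Cmpk2 stood at -0.30 ± 0.45 and 0.07 ± 0.15.

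The 2 genes that fell at P12 were Sp100 and Rsad2. Sp100, a protein of PML nuclear bodies, had 20.5, 26.6 and 26.0 CPM in WT and 19.1, 14.5 and 17.9 in Digenic (-0.50 ± 0.13, adjusted p = 0.0147). Rsad2 had 56.5, 60.5 and 65.8 and then 44.6, 50.4 and 53.9 (-0.30 ± 0.08, adjusted p = 0.0235). Both lay lower in 3 of 3 Digenic mice, and in the fit of all 36 libraries neither was called. Rsad2 and Cmpk2 are neighbours on chromosome 12 (chr12:26442746-26456452 and chr12:26469204-26479837, mm10, GENCODE M21).

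At P12 replicate 1 stood apart from the other Digenic libraries. It was the highest Digenic library for 38 of 40 genes, and its mean log2 difference from WT over the set was 1.41, against 0.25 and 0.49 in replicates 2 and 3. In replicate 1 37 genes lay above every WT library, in replicate 2 21 and in replicate 3 27. Shares over all genes are not given here for single libraries, so these counts cannot be set beside one. Without replicate 1, whose column header differs from its label, the median change was 0.35, and 16 genes were called, of which 13 up and 1 down were also called with it. The rises that no longer passed without it were those of Bst2, Ifi35, Irf8, Oas3, Rtp4, Trim30a and Zbp1. The count was 8, 13 and 7 without WT replicates 1, 2 and 3.

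No gene of the set was called in the single mutants at P12 either, where again few genes of any kind were called. There 0 of 40 genes were called in Pkd1-RC/RC against WT by edgeR and by DESeq2, where edgeR called 0.267% of all genes, and 1 of 40 had an unadjusted p under 0.05, against 7.46% of all genes. In Pkhd1-/- both tools called 0, where edgeR called 0.0333% of all genes, and 3 of 40 had an unadjusted p under 0.05, against 4.41%. The medians were -0.09 and -0.15. Digenic against Pkd1-RC/RC gave 18 up and 0 down by edgeR, beside 19.5%, with a median of 0.98, and Digenic against Pkhd1-/- gave 23 up and 0 down, beside 28.2%, with a median of 1.08. Without Pkd1-RC/RC replicate 3 the former count was 7, and without Pkhd1-/- replicates 1, 2 and 3 the latter was 11, 15 and 13. Without Digenic replicate 1 the median against Pkhd1-/- was 0.43.

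At birth the direction was the opposite, without passing the test. In Digenic against WT at P0 36 of 40 estimates lay below 0, with a median of -0.50. By edgeR 0 were called, beside 0.671% of all genes. DESeq2 called 8, and its share over all genes is not given here, so that count cannot be set beside one. An unadjusted p under 0.05 was reached by 17 of 40, against 16.4% of all genes. For 18 genes all 3 Digenic libraries lay below all 3 WT libraries, as for 11.2% of all genes. Rtp4, a chaperone that restrains the interferon response, came nearest, with 22.5, 20.2 and 22.5 CPM in WT and 10.4, 6.99 and 8.71 in Digenic (-1.32 ± 0.28, adjusted p = 0.0548). Ifit1 had 6.69, 8.35 and 7.77 and then 2.46, 2.03 and 3.14 (-1.58 ± 0.43, adjusted p = 0.108). Irf7 had 22.6, 26.9 and 20.5 and then 12.8, 7.08 and 13.4 (-1.07 ± 0.36, adjusted p = 0.183).

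Not every gene went that way. Ifit2, near Ifit1 on chromosome 19 (chr19:34550694-34576419 and chr19:34640871-34650009, mm10), had 20.0, 21.3 and 23.1 CPM in WT and 23.3, 31.2 and 29.5 in Digenic (0.38 ± 0.18, adjusted p = 0.305). Ifit3, which lies between them, and Samd9l also had higher means. Irf1 and Irf8 stood at -0.09 ± 0.15 and -0.03 ± 0.14.

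The Digenic group at P0 was also set against each single mutant. Against Pkhd1-/- 0 of 40 were called by edgeR and DESeq2, where edgeR called 0.244% of all genes, with a median of -0.28. Unadjusted, 7 of 40 passed 0.05, against 14.9% of all genes. Against Pkd1-RC/RC 0 were called by both, where edgeR called 0.0388% of all genes, and 13 of 40 had an unadjusted p under 0.05, against 5.04%. The median was -0.42, which was -0.63 and -0.15 without Pkd1-RC/RC replicates 1 and 3. In Pkhd1-/- against WT 0 were called by both, where edgeR called 0.0111% of all genes, and 33 of 40 estimates lay below 0 (median -0.27). Unadjusted, 7 of 40 passed 0.05, against 4.71% of all genes. In Pkd1-RC/RC against WT 0 were called by both, where edgeR called 0.0166% of all genes, and 2 of 40 had an unadjusted p under 0.05, against 10.4%. That group spread widely, with set means of -0.51, -0.18 and 0.36. In replicate 3 27 of 40 genes lay above every WT library, while in replicate 1 28 lay below. Shares over all genes are not given here for single libraries, so these counts cannot be set beside one.

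The change of the Digenic difference with age was tested as an interaction. From P0 to P3 it rose for 21 of 40 genes and fell for 0 by edgeR, beside 0.693% of all genes, with a median change of 1.88. The largest called was Ifit1, at 4.18 ± 0.68 (adjusted p = 0.00346). Rtp4 and Irf7 followed at 3.14 ± 0.52 and 3.10 ± 0.57. Without Digenic P0 replicate 2, WT P3 replicate 1 or Digenic P3 replicate 2 the counts were 10, 7 and 6. From P3 to P12 it fell for Mx2 alone (-2.41 ± 0.66, adjusted p = 0.0470), beside 2.33% of all genes, with a median of -0.51 and 34 of 40 estimates below 0. That single call ended without any 1 of 9 of the 12 libraries tested.

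Sp110, a nuclear body protein encoded near Sp100 (chr1:85576899-85598817 and chr1:85649988-85709998, mm10), went against the set. At P3 it had 2.04, 2.79 and 2.63 CPM in WT and 0.21, 0.10 and 0.10 in Digenic, a change of -4.15 ± 0.46 (adjusted p = 0.000761). These were 15, 8 and 8 reads. It also fell against Pkd1-RC/RC by 3.96 and against Pkhd1-/- by 3.34 on the log2 scale. At the other ages all 3 Digenic libraries lay below WT, to different degrees. At P0 the Digenic libraries had 0, 0.05 and 0.84 CPM against 1.25 to 2.53 in WT, and at P12 0.12, 2.0 and 3.04 against 3.25 to 5.0. Hence 6 of the 9 Digenic libraries had at most 15 reads of Sp110, and the P12 library among them is replicate 1, in which the rest of the set was highest.

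G530012D18Rik, on the other strand, shares 397 bases with Sp110 (chr1:85576899-85577295), and the sources used here do not state strandedness, so reads there cannot be told apart. It had 0 reads in 5 of the same 6 libraries and 1 read in the sixth, against 13 to 41 reads in the other 3 Digenic libraries. Sp140, of the same family, was not called. At P3 it had 2.43, 3.55 and 3.06 CPM in Digenic against 3.97 to 4.81 in WT (-0.51 ± 0.17, adjusted p = 0.142). Both Pkhd1 (chr1:20057779-20618064) and Sp110 lie on chromosome 1. In Pkhd1-/- kidneys, which also lack Pkhd1, Sp110 stood at 0.77 to 3.50 CPM over the 3 ages. At P0 its reads there were 109, 106 and 60, against 62, 193 and 93 in WT. At P3 they were 142, 74 and 43, against 111, 165 and 194. At P12 they were 174, 235 and 98, against 262, 320 and 340. The part of the Pkhd1 mutation, or of its chromosome, in the Sp110 values was not tested.

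**Figure D4:**
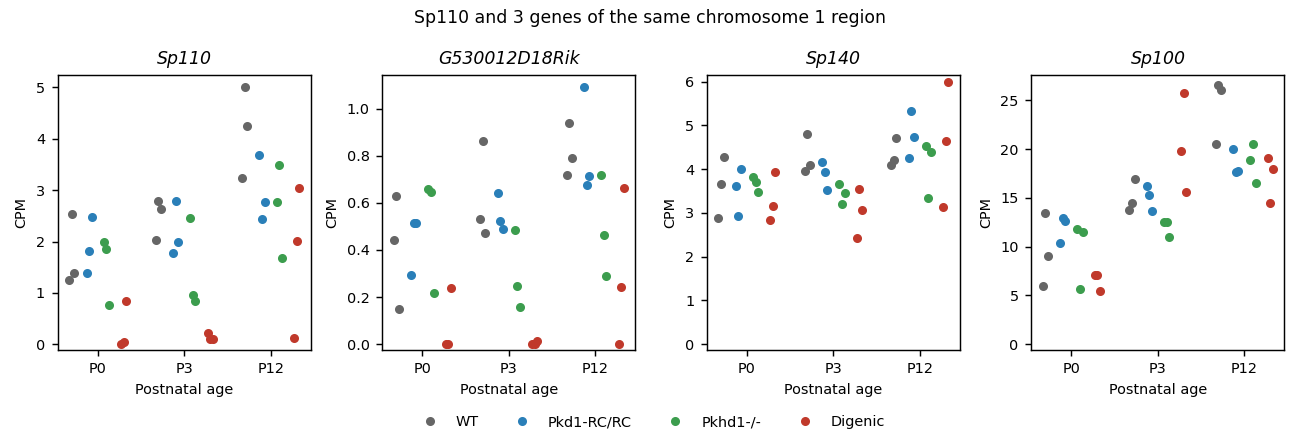
CPM of Sp110, the overlapping gene G530012D18Rik, Sp140 and Sp100 in every library (points) by genotype and age. Digenic points of Sp110 and G530012D18Rik lie near 0 in the same 6 libraries, while those of Sp140 and Sp100 do not.

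Upstream of the set, the 8 interferon genes of the list were not analysed here. Of 6 interferon receptor genes 0 passed in Digenic against WT at P3. Stat3, a transducer of cytokine receptors, rose by 0.75 ± 0.15 (adjusted p = 0.0232). Of 11 feedback inhibitors 3 rose: Adar, Socs3 and Ptpn6, by 0.58, 0.84 and 0.61. Of 7 interferon gamma markers 2 rose. Nlrc5, the activator of MHC class I genes, had 0.40, 0.68 and 0.80 CPM in WT and 14.9, 43.7 and 2.46 in Digenic (5.0 ± 0.90, adjusted p = 0.0215), and Icam1, an adhesion molecule, rose by 1.35. Cxcl10, a chemokine of both pathways, had 6.85, 47.0 and 3.46 CPM against 1.64 to 1.86 in WT without passing (3.44 ± 0.85, adjusted p = 0.0676). Of 53 further interferon-stimulated genes outside the set, 22 rose and 0 fell by edgeR, with a median of 0.98, among them Xdh, Phf11d, Slfn2 and Oas1b by 1.16 to 2.34.

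At P12, where 12% of all genes rose and 11% fell, other pathway genes were called as follows. Of the receptors 4 of 6 rose, with Ifngr1, a chain of the interferon gamma receptor, at 0.62 ± 0.10, and Stat3 rose by 1.06 ± 0.11. Of the nucleic acid sensing genes outside the set 7 of 15 rose, among them Tlr9 and Tlr7, endosomal receptors for DNA and RNA, by 2.24 and 1.94. Feedback inhibitors gave 7 of 11 up, with Socs3 and Socs1 at 1.62 and 0.94. Interferon gamma markers gave 6 of 7 up, and Cd74, the invariant chain of MHC class II, changed by 5.03 ± 0.74 (adjusted p = 0.00187). Of the 53 further genes 34 rose and 1, Slfn5, fell (-0.84 ± 0.08).

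Markers of immune cells changed to a different degree at each age. At P3 4 of 13 macrophage markers rose (Lyz2, Fcgr1, Cd163 and Csf1r, by 0.67 to 1.64), with summed levels of 331.5 to 536.7 CPM in Digenic against 218.3 to 283.7 in WT, and 0 of 6 neutrophil markers were called. At P12 13 of 13 macrophage and 6 of 6 neutrophil markers rose, with medians of 2.31 and 4.09. Macrophage markers then summed to 1322, 502.3 and 1299 CPM in Digenic replicates 1 to 3, against 207.5 to 271.5 in WT. Replicates 1 and 3 were thus alike in these markers while their interferon set means were 1.41 and 0.49. At P0 1 of 13 macrophage markers rose (Csf1r, 0.94), while the median over the 13 was -0.19. Sums were 255.8 to 292.7 CPM in Digenic against 221.6 to 258.8 in WT, of which Csf1r made 105.5 to 116.4 and 49.8 to 72.5. Neutrophil markers at P0 summed to 10.8 to 19.9 CPM in Digenic and 24.6 to 27.2 in WT, with 0 of 6 called. Of 5 markers of plasmacytoid dendritic cells, a main source of type I interferon, 1 was called at P3, Bst2, itself a gene of the set. The other 4 summed to 73.5 to 98.2 CPM in Digenic and 87.7 to 96.9 in WT. Of 10 listed T and NK cell markers only 2 were tested. These summed to 2.01 to 2.97 CPM in Digenic at P3 against 3.49 to 5.13 in WT, and Cd8a, 1 of the 2, fell by 1.84 on the log2 scale. The part of these cells in the interferon values was not tested. Of 10 kidney markers, 7 fell and 1 rose at P12 and 0 were called at P3. Adrenal markers summed to over 100 CPM in 8 libraries. They were Pkd1-RC/RC replicate 2 of P0 and replicate 1 of P3, and Pkhd1-/- replicate 1 of P0 and of P3. The others were Pkhd1-/- replicate 3 of P12, Digenic replicate 3 of P3 and Digenic replicates 2 and 3 of P12. The part of adrenal RNA in the interferon values was not tested.

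**Figure D5:**
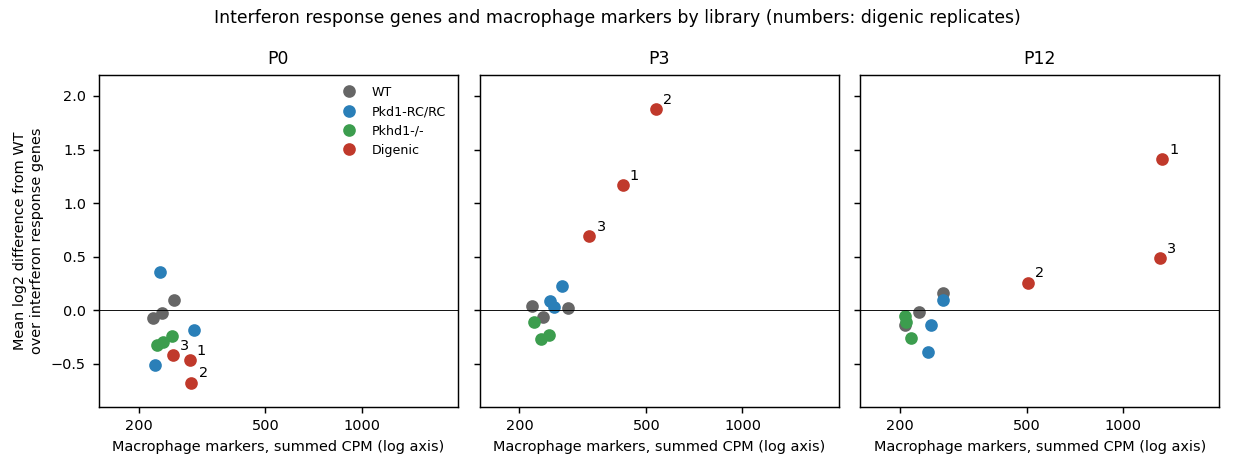
Mean log2 difference from WT over the 40 genes against the summed CPM of 13 macrophage markers (log axis), 1 point per library and 1 panel per age, with Digenic replicates numbered. At P3 replicate 2 is highest on both axes (1.88 and 536.7 CPM), and at P12 replicates 1 and 3 have marker sums of 1322 and 1299 CPM at set means of 1.41 and 0.49.

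The size of the change was set beside the promoter letters. At P3 the 13 genes with an ISRE core had a median change of 1.52 and the 18 without one 1.23, and at P12 the medians were 0.73 and 0.82. For the 7 genes with a GAS core the medians were 1.41 at P3 and 1.01 at P12, against 1.31 and 0.76 for the 24 without one. These are descriptions of the windows read.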

How the data were processed

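Raw counts per gene and library were deposited by the authors and were the input of every test. Per the labels' protocols, the submitters' processing notes and the series text, 150 bp read pairs were aligned to mm10 with TopHat2 and Bowtie in MAP-RSeq 2.1.0 and counted with featureCounts; edgeR is also named. The deposited table also holds the authors' mean raw count per group, a rounded score here, which matched the mean of the 3 libraries named by the labels for 100% of genes within 0.5 of a count. Gene lengths in the table served for RPKM. Groups came from the labels. Members, gene lists and the rule for named genes were chosen with earlier results of these data known.

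Counts were fitted with edgeR 4.0.16 (limma 3.58.1, R 4.3.3): filterByExpr, TMM, robust quasi-likelihood, 12 libraries per age, or all 36 for changes between ages. The Benjamini-Hochberg threshold was 0.05 over all genes. Tests were checked on simulated data: with 200 of 18043 genes changed in Digenic against WT at P3, 80.8% of 2-fold and 99% of 4-fold changes were called, and 4.26% of calls were false. With DESeq2 1.42.0 those values were 82.8%, 97% and 11.3%. These shares describe the simulated data only, and their size in the deposited libraries was not tested.

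Named genes were Ifit1, Isg15, Oasl2, Irf7, Stat2, Usp18, Rsad2 and Irf1 throughout, up to 6 called members per direction and comparison by adjusted p, members against the majority, the highest and lowest by RPKM, and up to 4 called genes per other list; Cxcl10, Sp140, G530012D18Rik, Ifit2 and others with values but no call were added after their values were seen. A result on a withheld item is not reported here. Replicate numbers were checked as pairs by the correlation of deviations from group means: all 3 exceeded 0.1 only for WT P12 against P3 (0.11 to 0.37) and Pkhd1-/- against WT at P12 (0.15 to 0.22), and nothing in the labels ties the numbers. Alternatives were DESeq2, upper-quartile scaling, no filter, a replicate block, leaving out each library, all 36 libraries in 1 fit, a sex covariate (P3) and a gene length offset (P0). Depth was 51411240 to 80789299 counts per library. Shares over all genes for unadjusted p and for groups that do not overlap were computed as for the members. None was computed for single libraries set against the WT range.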

Additional observations from a re-analysis of the deposited data

Results flagged for a closer look

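The difference between Digenic and WT kidneys was tested for an interaction between genotype and age (edgeR, all 36 libraries, Benjamini-Hochberg adjusted). From P0 to P3 it rose for 21 of 40 interferon response genes, beside 0.693% of all genes called. The log2 change was 4.18 for Ifit1, 3.14 for Rtp4, 3.10 for Irf7, 3.09 for Isg15, 2.75 for Usp18, 2.68 for Oasl2, 2.42 for Dhx58, 2.01 for Stat2, 1.80 for Irf9 and 1.5 for Cmpk2. From P3 to P12 it changed for 1 gene of the 40, Mx2, by -2.41, beside 2.33% of all genes called. Leaving out 1 library at a time gave 0 to 4 calls there, and Mx2 is a polymorphic pseudogene in the annotation.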

How the results depend on the processing

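All 990 recomputed changes of called, named genes kept their direction, and 857 stayed below an adjusted p of 0.05. Of the 133 that did not, 95 came from leaving out a library and 25 from the sex covariate. Only genes called in the main fit were recomputed, on mostly the same libraries, so a kept direction was likely in advance. Of 227 recomputed counts 172 stayed within 1.5 times, and these include counts of 0 that stayed 0, as in every single mutant against WT. Of the 55 that moved, 43 came from leaving out a library. DESeq2 called 8 genes in Digenic against WT at P0, 33 against Pkd1-RC/RC at P3 and 29 at P12, and 2 in the change from P3 to P12. One fit of all libraries called 7 in Digenic against WT at P0 and 28 against Pkd1-RC/RC at P3, and upper-quartile scaling called 1 at P0. The shares that these alternatives called over all genes are not given here, so their counts cannot be set beside one. With sex as a covariate at P3 the counts were 2 against WT, 1 against Pkd1-RC/RC and 0 against Pkhd1-/-. With the replicate block 6 were called in Digenic against Pkd1-RC/RC at P3 (main count 15) and 0 in the change from P3 to P12 (main count 1), and no other count moved by over 1.5 times; the block changed Digenic against WT to 24 at P3 and 17 at P12. The cause of these changes was not tested.

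Leaving out 1 library at a time gave 12 to 36 genes in Digenic against WT at P3, 1 to 32 against Pkd1-RC/RC and 18 to 38 against Pkhd1-/-. At P12 the ranges were 7 to 27, 7 to 26 and 11 to 27, and at P0 0 to 1 for each. They were 10 to 17 for WT P3 against P0, 3 to 7 for WT P12 against P3, 6 to 29 for the change from P0 to P3 and 0 to 4 for that from P3 to P12. The single mutants against WT stayed at 0 under every alternative run.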
